A study of Mus musculus with 5 samples.

Results

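The kinesin superfamily was taken as every probe set whose single platform gene symbol is Kif followed by a digit, which gave 99 probe sets of 37 genes, of 45037 probe sets and 18193 genes in all. Each gene is given at its brightest probe set, by the mean of all 5 arrays, and its further probe sets served as a check. RNA came from the dorsal lateral geniculate nucleus (dLGN), through which the thalamus passes retinal signals to the cortex, of C57BL/6 background mice at postnatal day 0. The knockout group, Sema6A KO (Sema6A-/-), held 2 arrays, and the control group, Sema6A heterozygous, held 3, so the controls also carried 1 disrupted allele and none was wild type. Each array was 1 pool of nuclei from pups of 1 genotype and different litters, so p-values measure the spread between pools.

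Kinesins are motor proteins that use ATP to move along microtubules or to shorten them. In neurons, members of the kinesin-1, kinesin-2 and kinesin-3 families carry vesicles, mitochondria and endosomes out of the cell body into axons and dendrites. In dividing progenitors, another set of members builds the spindle, moves chromosomes and completes cytokinesis, and further members work in cilia. The comparison asked which kinesin transcripts differ between the genotypes, and whether the transport and the mitotic members differ alike.

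Of the 37 genes, 15 were classed as transport kinesins, 12 as mitotic, 5 as cilium kinesins and 5 as other. Values are log2 RMA values, and a difference is the knockout mean minus the control mean. The median of all probe sets, 6.39, served as a guide to dim signals: 27 kinesin genes reached it in at least 1 group, among them all 15 transport kinesins and 6 of 12 mitotic ones. Levels of different genes were not set against each other, since each probe set has its own affinity.

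Sema6a itself read 7.81 and 7.85 in the knockout pools and 10.47, 10.65 and 10.39 in the control pools, so the labels and the target go together. All 14 markers of thalamic relay neurons reached the median level, Tcf7l2 at 12.95 and 13.20 in the knockout pools and 12.86, 12.92 and 12.74 in the control pools. They did not move one way: 5 had the knockout above every control and 3 below, so 57.1% did not overlap, against 29.7% of all genes. Among all genes reaching the median level, 33.7% did not overlap. Necab1 differed by 0.98 and Gbx2 by 1.97, whereas Rgs4 differed by -0.50 and Rora by -0.36, and limma called 0 of the 14 after adjustment, while 2 higher and 2 lower ones had a p under 0.05 before it. Their part in the kinesin differences was not tested. Knockout pool 1 stood apart in several measures. Slc6a4, the serotonin transporter gene, read 7.98 there and 10.60 in knockout pool 2, against 10.60, 10.85 and 10.74 in the control pools. The GABAergic and prethalamic markers of knockout pool 1 had a median 2.62 above the control mean, against 0.09 in knockout pool 2. The 3′ probe set of the Gapdh control exceeded the 5′ one by 2.34 in knockout pool 1, against 0.96 in knockout pool 2 and 0.77 to 1.32 in the controls. Tissue was bulk, so more cells of a type and more RNA per cell cannot be told apart.

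A single kinesin gene, Kif26b, passed an adjusted p of 0.05 in limma. It was higher in both knockout pools. Across all genes 0.104% passed, 19 of 18193, and 0.0879% passed as higher in the knockout. Across all probe sets 0.0733% passed, 0.0644% as higher. Without adjustment, a p under 0.05 was reached by 2 of the 37 kinesins (5.41%) with higher values, against 6.9% of all genes, and by 2 (5.41%) with lower values, against 4.9% of all genes. The shares of kinesins past this threshold were thus near the background in both directions. The number lower depended on single arrays: it was 0 without control pool 1, 1 without control pool 2 or 3, and 3 without knockout pool 1. The median difference was -0.03 over the 37 kinesins and 0.01 over all genes, and 32 of the 37 differed by less than 0.5. The median size of the difference, whatever its sign, was 0.18 for kinesins and 0.15 for all genes.

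**Figure D1:**
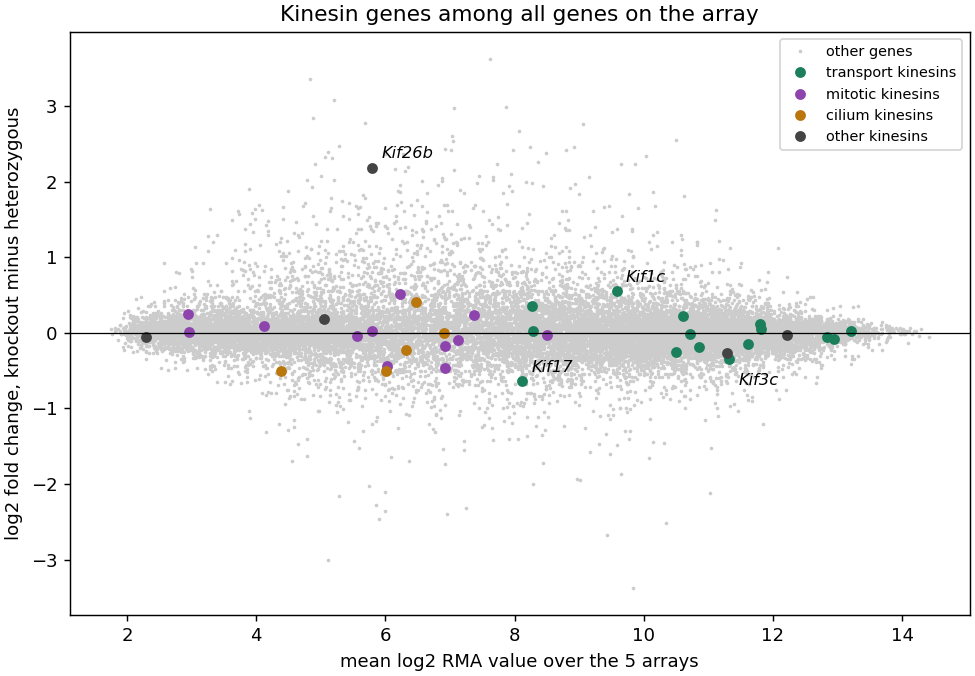
Log2 difference between knockout and heterozygous pools (vertical axis) against the mean log2 RMA value over the 5 arrays (horizontal axis) for each gene at its brightest probe set, with the 37 kinesins coloured by class. Kif26b, at 2.19, stands apart from the other kinesins, which lie between -0.64 and 0.56.

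Kif26b encodes an atypical kinesin that binds microtubules and is known from cell adhesion, kidney development and Wnt5a-Ror signalling. It read 7.05 and 7.17 in the knockout pools and 4.91, 4.80 and 5.06 in the control pools. Both knockout pools lay above the median of all probe sets and all 3 control pools lay below it, with no overlap. The log2 difference was 2.19 with a standard error of 0.13 (95% interval 1.87 to 2.50), a 4.55-fold rise (limma adjusted p = 0.0236). The rise ranked 34 of 18193 genes by size. With any 1 of the 5 arrays left out the difference stayed between 2.13 and 2.25, while the adjusted p in limma lay between 0.073 and 0.234, so the call was lost each time. Over 14 alternative settings the adjusted p ranged from 0.00452 to 0.298. Kif26b has 1 probe set on the array, so no second probe set checks it.

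Markers of some other cells moved with the same pools. Of 15 measured microglia markers, 15 had both knockout pools above every control pool, against 15.8% of all genes, and their summed linear signal was 14094 to 18324 in the knockout and 3890 to 4970 in the controls. No marker is at 0 on an RMA scale, and Itgam stayed below the array median in every pool. Of 9 oligodendrocyte lineage markers, 6 (66.7%) were above in the same way, against 15.8% of all genes, and 1 was below, against 13.9%. That one was the myelin gene Mag, at 6.08 and 5.68 in the knockout pools and 6.93, 6.47 and 7.01 in the control pools. The list had summed signals of 12169 to 13215 in the knockout and 9184 to 10168 in the controls, and bright probe sets weigh most in a sum. Its median against the control mean was 0.32 in both knockout pools and 0.12, -0.07 and -0.05 in the control pools. The part of these cells in the Kif26b difference was not tested. The GABAergic markers had summed signals of 1419 to 8704 in the knockout and 906 to 1825 in the controls, and 6 of 15 (40%) lay above every control, against 15.8% of all genes. Without knockout pool 1, where these markers were high, the Kif26b difference was 2.24, and the part of these cells in it was not tested. In the other lists a smaller share lay above every control. Of 12 radial glia and astrocyte markers 2 (16.7%) lay above and 2 (16.7%) below, against 15.8% and 13.9% of all genes. Of 9 endothelial and pericyte markers 2 (22.2%) lay above and 0 below. The ependymal, meningeal and cortical lists each had 1 marker above (10% to 12.5%) and 1 or 2 below (12.5% to 22.2%). The meningeal marker above was Pdgfra, which is also counted among the oligodendrocyte lineage markers above.

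Kif26a, the closest relative of Kif26b, is known in mouse for restraining growth factor signalling in enteric neurons, and its motor domain lacks ATPase activity. It read 11.29 and 10.99 in the knockout pools and 11.37, 11.41 and 11.40 in the control pools. Both knockout values were below all control values. The difference of -0.26 (95% interval -0.58 to 0.07) did not pass (limma adjusted p = 0.539), and it was -0.40 without knockout pool 1 and -0.11 without knockout pool 2.

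The promoters of this pair, of the transport motor gene Kif1c and of the spindle motor gene Kif11 are shown as those of the called gene, its relative, a transport kinesin and a mitotic kinesin. The sequences are those of RefSeq on GRCm38.p6, the 250 bases before the start site, 5′ to 3′ on the gene's strand, all from the plus strand. Capitals mark matches to TTTGAA, the core of the cell cycle homology element, CCAAT, the box bound by NF-Y, and GGGCGG, the GC box bound by Sp1, each on either strand, so a match on the opposite strand is printed as its reverse complement. Kif26b lies at chr1:178528875-178529124, Kif26a at chr12:112145958-112146207, Kif1c at chr11:70700298-70700547 and Kif11 at chr19:37376132-37376381.
Kif26b: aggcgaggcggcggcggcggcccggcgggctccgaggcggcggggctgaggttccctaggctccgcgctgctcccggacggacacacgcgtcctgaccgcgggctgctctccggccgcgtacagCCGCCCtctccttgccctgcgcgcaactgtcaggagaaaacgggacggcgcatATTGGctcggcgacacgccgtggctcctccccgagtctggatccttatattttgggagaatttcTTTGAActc
Kif26a: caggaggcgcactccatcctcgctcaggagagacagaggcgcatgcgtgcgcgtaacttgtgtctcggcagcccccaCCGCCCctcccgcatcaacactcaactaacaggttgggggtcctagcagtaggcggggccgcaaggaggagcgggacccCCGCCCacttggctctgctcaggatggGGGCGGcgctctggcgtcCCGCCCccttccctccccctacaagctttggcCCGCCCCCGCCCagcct
Kif1c: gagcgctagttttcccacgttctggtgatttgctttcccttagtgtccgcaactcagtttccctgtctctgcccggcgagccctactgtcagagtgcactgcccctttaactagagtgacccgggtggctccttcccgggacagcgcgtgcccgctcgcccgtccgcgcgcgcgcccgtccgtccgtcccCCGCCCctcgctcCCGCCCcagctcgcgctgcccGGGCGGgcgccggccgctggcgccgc
Kif11: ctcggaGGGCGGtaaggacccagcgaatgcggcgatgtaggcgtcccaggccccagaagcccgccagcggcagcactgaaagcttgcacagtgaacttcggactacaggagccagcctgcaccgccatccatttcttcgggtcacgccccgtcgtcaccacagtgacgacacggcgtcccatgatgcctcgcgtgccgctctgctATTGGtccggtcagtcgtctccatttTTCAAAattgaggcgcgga
Kif26b holds 1 match to each motif, with TTTGAA starting 9 bases before the start site. Kif26a holds 6 GC boxes and neither of the other motifs, and Kif1c holds 3 GC boxes and neither of the others. Kif11, like Kif26b, holds 1 match to each motif, with TTTGAA 19 bases, CCAAT 45 bases and the GC box 244 bases before the start site. In these 4 sequences no match overlaps a match to another motif.

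Sequences were matched for 31 of the 37 genes, with 35 promoters. TTTGAA was found in 5 of 11 mitotic kinesin promoters (45.5%) and in 1 of 13 transport kinesin promoters (7.69%), against 16% of all 32851 promoters. CCAAT was found in 7 mitotic promoters (63.6%) and 4 transport promoters (30.8%), against 33.8% of all. The GC box was found in 6 mitotic promoters (54.5%) and 8 transport promoters (61.5%), against 32.7% of all. The Kif1b windows at chr4:149307699-149307948 and chr4:149307734-149307983 overlap and share CCAAT and GC box matches. Both windows enter the transport counts of these motifs. The transport match to TTTGAA lay in the Kif1a window at chr1:93082481-93082730, and the Kif1a window at chr1:93101875-93102124 held none of the motifs. Start sites were taken as annotated. Whether each window, such as those of Kif1a, Kif14 and Kif2c, is a promoter was not tested. These shares describe the letters of the windows only, and no test was made of them.

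Among transport kinesins, 7 of 15 had a higher and 8 a lower mean in the knockout, and 0 passed the adjusted threshold in limma. Before adjustment, 1 (6.67%, Kif1c) had a p under 0.05 with higher values and 2 (13.3%, Kif3c and Kif17) with lower values, against 6.9% and 4.9% of all genes. The conventional motors of kinesin-1 are Kif5a, Kif5b and Kif5c, the heavy chains that carry mitochondria and vesicles along axons. Kif5a read 12.80 and 12.98 in the knockout pools and 12.97, 13.04 and 12.91 in the control pools. The ranges overlapped, with a difference of -0.08 (95% interval -0.38 to 0.21). Kif5b read 11.49 and 11.58 in the knockout pools and 11.68, 11.66 and 11.68 in the control pools. Both knockout values were just below the controls, with a difference of -0.14 (95% interval -0.39 to 0.12; limma adjusted p = 0.665). Kif5c read 13.22 and 13.21 in the knockout pools and 13.22, 13.21 and 13.14 in the control pools. It differed by 0.03 (95% interval -0.23 to 0.28).

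Other probe sets of Kif5c did not give the same picture as its brightest one. The second-brightest one read 12.43 and 12.63 in the knockout pools and 12.80, 12.85 and 12.99 in the control pools, a difference of -0.35 (limma adjusted p = 0.402). The third read 8.78 and 8.87 in the knockout pools and 9.31, 9.10 and 9.65 in the control pools, a difference of -0.53 (limma adjusted p = 0.396). Both had the knockout below every control, whereas the brightest probe set overlapped. In Kif5a, the second-brightest probe set likewise had both knockout values, 6.55 and 7.08, below the controls at 7.09, 7.20 and 7.59. Of the 6 Kif5b probe sets, 2 were higher and 4 lower in the knockout. The second-brightest one was higher, at 11.35 and 11.34 in the knockout pools against 11.30, 11.18 and 11.25 in the control pools, a difference of 0.10. The dimmest one was also higher, at 4.16 and 2.78 in the knockout pools against 2.52, 2.39 and 2.24 in the control pools, all below the median level.

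The heavy chains of kinesin-2 are Kif3a and Kif3b, which pair with the adaptor encoded by Kifap3 and move cargo in axons and cilia, and Kif3c, a neuronal partner of Kif3a. Kif3c read 11.11 and 11.12 in the knockout pools and 11.55, 11.44 and 11.41 in the control pools. The knockout pools were nearly alike and below every control, with a difference of -0.35 (95% interval -0.62 to -0.09; limma adjusted p = 0.342). Its second probe set gave -0.10 with overlapping pools. Kif3a averaged 11.85 ± 0.22 in the knockout pools (SD, n = 2) and 11.79 ± 0.03 in the control pools (SD, n = 3), and overlapped with a difference of 0.05 (95% interval -0.28 to 0.38). Its further probe sets gave -0.31, -0.05 and -0.32, the last with the knockout pools below the controls. Kif3b differed by -0.19 and Kifap3 by -0.01. Kif17, a homodimeric kinesin-2 that carries NMDA receptor subunits into dendrites, read 8.10 and 7.37 in the knockout pools and 8.32, 8.21 and 8.58 in the control pools. Knockout pool 2 was the lower of the pair, and both were below the controls. The difference was -0.64 (95% interval -1.25 to -0.02; limma adjusted p = 0.436), and the 2 other probe sets gave -0.31 and -0.32 with overlap. The size rested on knockout pool 2: without it the difference was -0.27 (limma adjusted p = 0.514), and without knockout pool 1 it was larger in size.

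**Figure D2:**
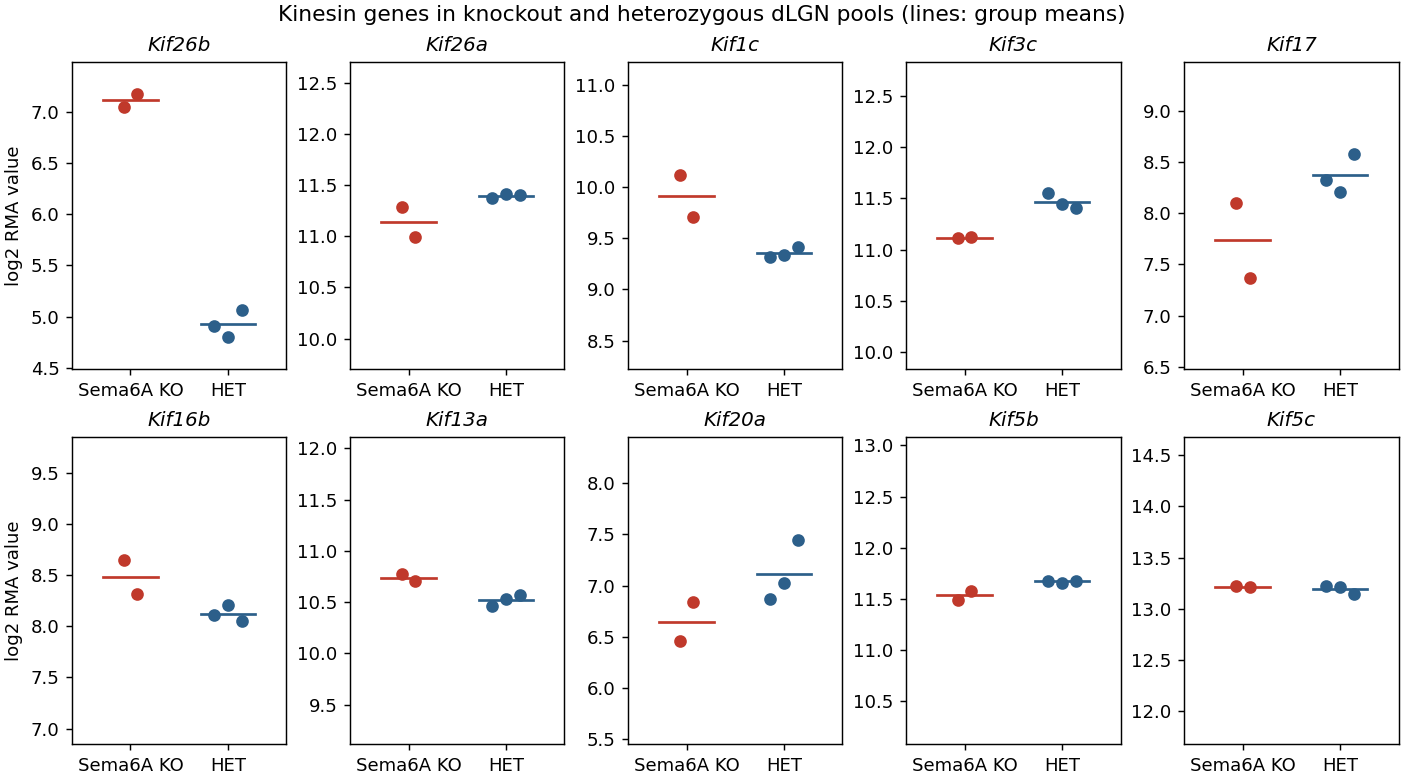
Log2 RMA values of 10 kinesin genes in the knockout pools (red, left) and heterozygous pools (blue, right); each point is 1 array, horizontal lines are group means, and every panel spans 3 log2 units. Kif26b shows the widest gap between the groups (7.05 and 7.17 against 4.80 to 5.06), while Kif5c is level at 13.14 to 13.22.

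The kinesin-3 family carries vesicles and endosomes, some members through lipid-binding tails. Kif1c, which moves dense-core vesicles and Golgi carriers, read 10.12 and 9.71 in the knockout pools and 9.32, 9.34 and 9.41 in the control pools. Both knockout pools were above every control, pool 1 the more so. The difference was 0.56 (95% interval 0.18 to 0.94; limma adjusted p = 0.305). It was 0.35 without knockout pool 1 and 0.21 with the gene's probe sets averaged. Its 4 probe sets were split, with 2 higher and 2 lower, from -0.29 to 0.64.

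Kif16b, a motor of early endosomes, read 8.65 and 8.31 in the knockout pools and 8.11, 8.21 and 8.05 in the control pools. Here all 3 probe sets had both knockout pools above every control, with differences of 0.36, 0.42 and 0.40. None passed, with limma adjusted p-values of 0.45, 0.386 and 0.365, and without knockout pool 1 the brightest differed by 0.19. Kif13a, which carries endosomes and the mannose-6-phosphate receptor, read 10.77 and 10.71 in the knockout pools and 10.46, 10.53 and 10.57 in the control pools. The pools did not overlap, with a difference of 0.22 (limma adjusted p = 0.51), and its 5 probe sets ranged from -0.07 to 0.38.

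Kif1a, the motor of synaptic vesicle precursors, varied within both groups, at 9.84 and 10.84 in the knockout pools and 10.33, 11.30 and 10.15 in the control pools. Its difference of -0.25 had a 95% interval of -1.38 to 0.87. The second probe set was tighter and gave 0.16 (95% interval -0.20 to 0.52). Kif1b, which moves mitochondria and vesicle precursors, had the most probe sets, 7, with 4 higher and 3 lower, and its brightest differed by -0.06. Kif13b differed by 0.03.

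The kinesin-4 motors Kif21a and Kif21b bind growing microtubule ends, and Kif21b also moves GABA receptors. Kif21b read 11.88 in both knockout pools and 11.77, 11.67 and 11.83 in the control pools. Its difference of 0.12 (limma adjusted p = 0.719) stood beside -0.29 at its dim second probe set. Kif21a differed by -0.01 at its brightest probe set, where the pools overlapped. At the second-brightest it read 9.12 and 9.01 in the knockout pools and 9.56, 9.59 and 10.17 in the control pools, a difference of -0.71 (limma adjusted p = 0.345).

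**Figure D3:**
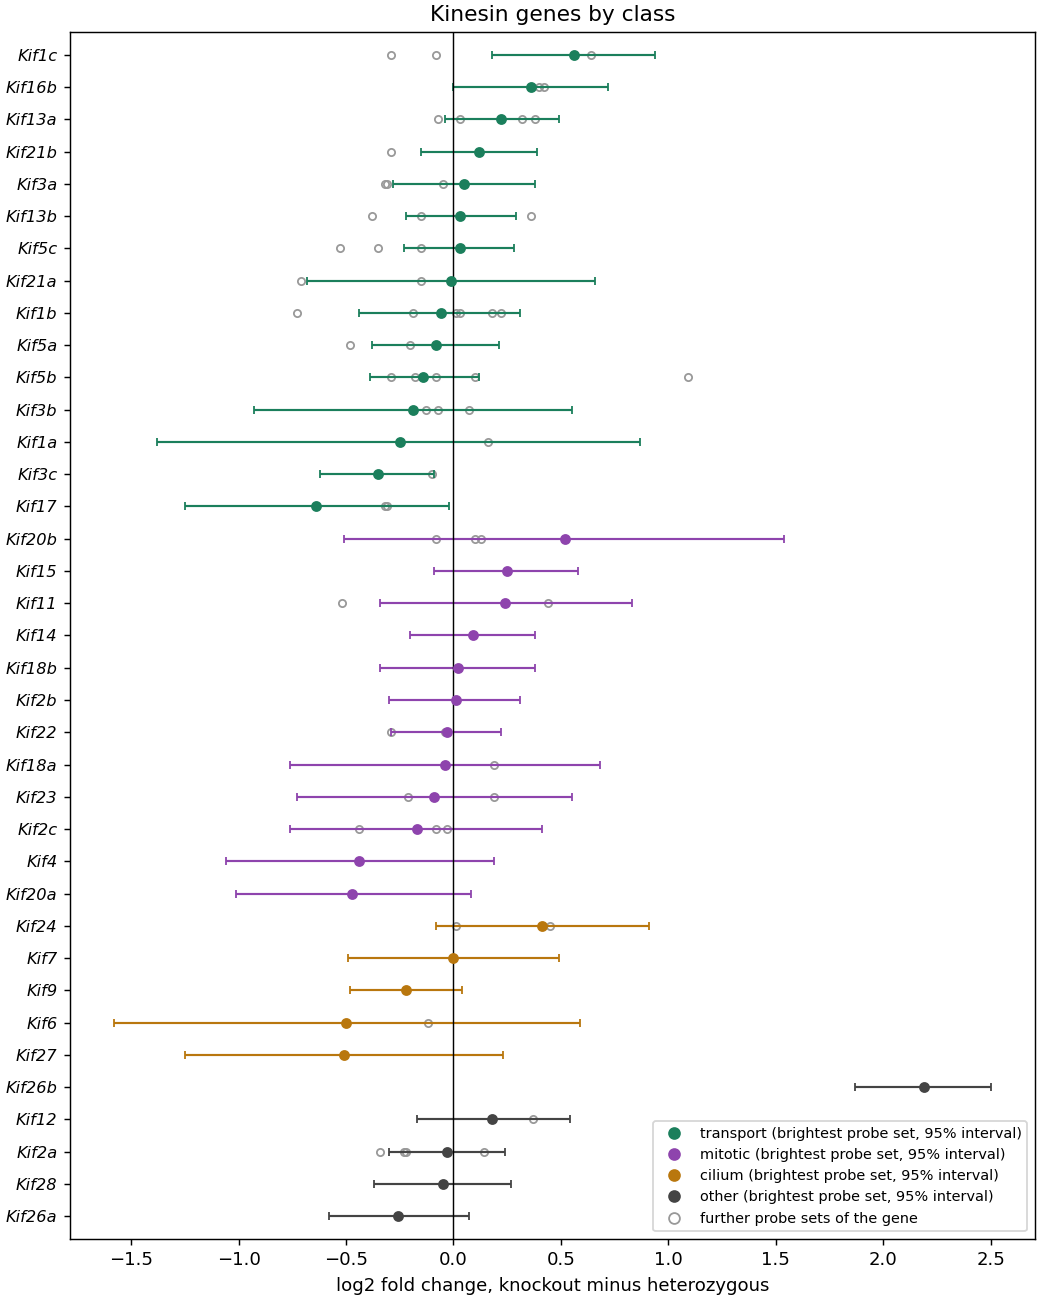
Log2 fold change, knockout minus heterozygous (horizontal axis), of the 37 kinesin genes grouped by class, with filled points and 95% intervals for the brightest probe set and open circles for further probe sets. Only the interval of Kif26b, 1.87 to 2.50, lies wholly above 1, and open circles of Kif5c, Kif1b, Kif21a and Kif11 reach below -0.5.

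Among mitotic kinesins, 6 of 12 had a higher and 6 a lower mean in the knockout. In limma 0 of the 12 reached an adjusted p of 0.05, and 0 had a p under 0.05 before adjustment. Kif11, the motor that pushes the spindle poles apart, read 7.73 and 7.30 in the knockout pools and 7.57, 7.33 and 6.93 in the control pools. The ranges overlapped, with a difference of 0.24 (95% interval -0.34 to 0.83), and its further probe sets gave 0.44 and -0.52. With 1 array left out it lay between 0.03, without knockout pool 1, and 0.46, without knockout pool 2. Kif20a, a motor of cytokinesis, read 6.46 and 6.84 in the knockout pools and 6.87, 7.03 and 7.45 in the control pools. Its difference of -0.47 (95% interval -1.01 to 0.08) did not pass (limma adjusted p = 0.512), and it was -0.28 without knockout pool 1 and -0.30 without control pool 3.

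Kif4, a motor bound to chromosomes, read 5.71 and 5.83 in the knockout pools and 6.02, 5.91 and 6.68 in the control pools, and only control pool 3 was above the median level. The difference was -0.44 (limma adjusted p = 0.583), and -0.20 without control pool 3. Kif15, another spindle motor, read 3.20 and 3.00 in the knockout pools and 2.70, 2.92 and 2.92 in the control pools, a difference of 0.25 (limma adjusted p = 0.561), or 0.15 without knockout pool 1. Kif14, which acts in cytokinesis, read 4.17 in both knockout pools and 3.96, 4.16 and 4.13 in the control pools, a difference of 0.09 (limma adjusted p = 0.804), or 0.03 without control pool 1. Both were dim in every pool, and their knockout values lay above the controls by little. The chromosome motor Kif22 differed by -0.03, the cytokinesis motor Kif23 by -0.09 and the depolymerase Kif2c by -0.17, with overlapping pools. Kif2b, Kif18a and Kif18b were dim and differed by 0.01, -0.04 and 0.02. The widest interval of the class was that of Kif20b, -0.51 to 1.54.

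Among cilium kinesins, Kif24, which restrains cilium assembly, read 6.72 and 6.73 in the knockout pools and 6.25, 6.66 and 6.04 in the control pools. The difference of 0.41 did not pass (limma adjusted p = 0.523), and its 3 probe sets gave positive differences of 0.41, 0.45 and 0.01. Kif9, known from motile cilia, read 6.19 in both knockout pools and 6.48, 6.38 and 6.38 in the control pools, a difference of -0.22 (limma adjusted p = 0.512). Kif7, a regulator of Hedgehog signalling at the cilium tip, differed by 0.00 (95% interval -0.49 to 0.49). Kif27 and Kif6 were dim and differed by -0.51 and -0.50 with overlapping pools. Of the other class, Kif2a, a microtubule depolymerase that limits axon branches, differed by -0.03 and Kif12 by 0.18, and Kif28 was dim at 2.23 and 2.30 in the knockout pools and 2.18 to 2.47 in the control pools.

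In the transport class 7 of 15 kinesins (46.7%) had no overlap between the genotypes, 4 with the knockout above and 3 below, against 29.7% of all genes. Among all genes reaching the median level, as all 15 did, the share was 33.7%. In the mitotic class 4 of 12 (33.3%) had no overlap, 2 above and 2 below. With members on both sides, the class medians lay near 0. The median difference was -0.01 for transport kinesins and -0.01 for mitotic kinesins, beside 0.01 for all genes. Per array, the median of the transport class against the control mean was 0.01 and 0.02 in the knockout pools and 0.00, -0.01 and -0.03 in the control pools. For the mitotic class it was 0.04 and -0.03 in the knockout pools and -0.16, -0.02 and 0.19 in the control pools. The transport minus mitotic median was -0.02 and 0.05 in the knockout pools, inside the range of the control pools at 0.16, 0.02 and -0.22. The mitotic class thus varied more between control pools, with a pooled SD of 0.15 between arrays, than the transport class at 0.01. No test was made of these class values.

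**Figure D4:**
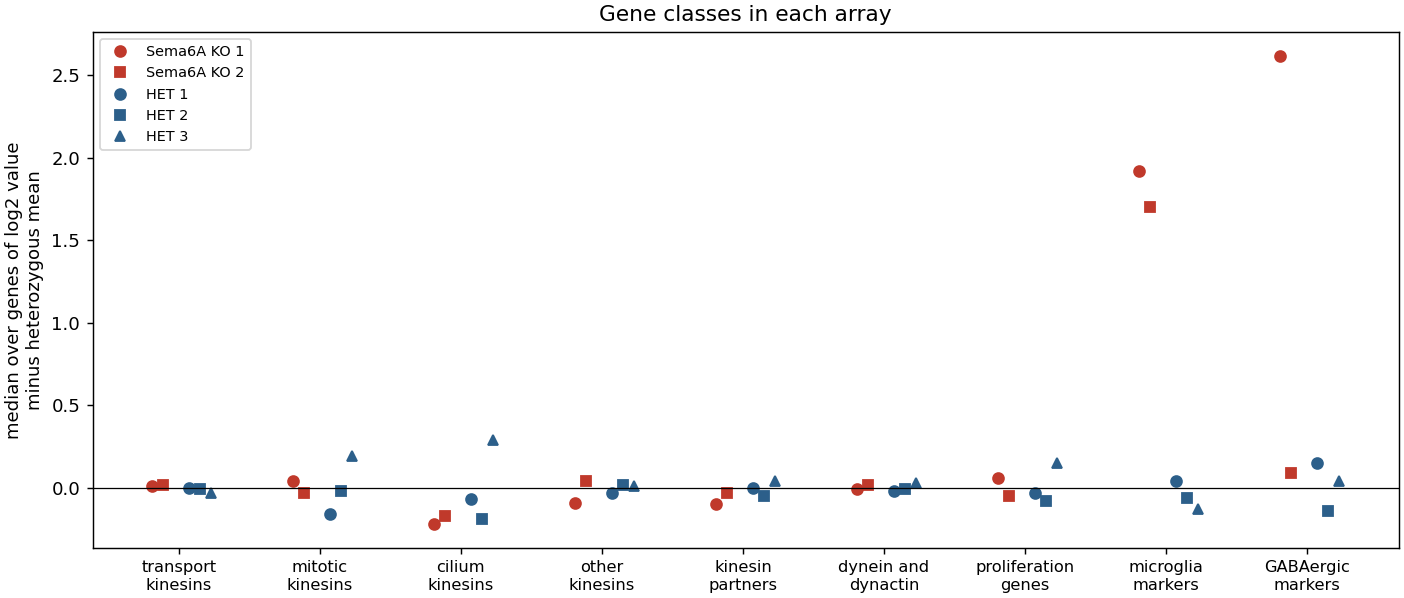
Median over the genes of each class of the log2 value minus the heterozygous mean (vertical axis), 1 point per array, for the kinesin classes, their partners and marker lists; knockout pools are red and heterozygous pools blue. The transport kinesins lie between -0.03 and 0.02 in all 5 arrays, whereas the microglia markers reach 1.70 and 1.92 in the knockout pools.

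Genes without overlap between the groups made up 15 of the 37 kinesins (40.5%), 8 with the knockout above and 7 below, against 29.7% of all genes. The shares by direction were 21.6% above, against 15.8% of all genes, and 18.9% below, against 13.9%. Further probe sets often disagreed in sign. Of 25 genes with more than 1 probe set, 10 had all of them on one side of 0, 3 higher and 7 lower, and 15 had both signs. Over all 99 kinesin probe sets, 8 higher (8.08%) and 7 lower ones (7.07%) had a p under 0.05 before adjustment, against 5.16% and 5.99% of all probe sets.

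The list of kinesin partners, from light chains to cargo adaptors, gave 31 measured genes. It also holds Kifc1, Kifc2, Kifc3 and Cenpe, kinesin motor genes whose symbols fall outside the family rule. These motor genes differed by -0.28, 0.13, -0.04 and -0.07, with overlapping pools. In limma 0 of 31 passed an adjusted p of 0.05, while before adjustment 1 higher (3.23%) and 1 lower one (3.23%) had a p under 0.05, against 6.9% and 4.9% of all genes. Their median difference was -0.08, and 23 of the 31 had a lower mean in the knockout, as had 8797 of the 18193 genes. The scaffold gene Grip2 differed by 0.40 (limma adjusted p = 0.363), with 8.58 and 8.47 in the knockout pools and 8.29, 8.04 and 8.06 in the control pools. The kinesin light chain gene Klc4 differed by -0.35 (limma adjusted p = 0.377), with 9.35 and 9.28 in the knockout pools and 9.69, 9.55 and 9.77 in the control pools. Both were free of overlap. Grip1, an adaptor of AMPA receptors and kinesin-1, differed by -0.27 and the kinesin-1 adaptor gene Fez2 by -0.24. The main light chain gene Klc1 differed by 0.06, and the mitochondrial adaptor genes Trak1 and Rhot1 by -0.11 and -0.01.

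Dynein and dynactin move cargo toward the cell body, opposite to most kinesins, and 24 of their genes were measured. Of these 0 passed the adjusted threshold in limma. Before adjustment 0 higher ones and 1 lower one (4.17%) had a p under 0.05, against 6.9% and 4.9% of all genes, and the median was 0.01. The one was Dync1i1, the neuronal dynein intermediate chain, at 10.31 and 9.78 in the knockout pools and between 10.68 and 11.44 in the control pools. Both knockout pools were below every control, and the means were 10.04 ± 0.37 for 2 knockout pools and 11.04 ± 0.38 for 3 control pools (SD; limma adjusted p = 0.305). The ubiquitous chain Dync1i2 differed by -0.02 and the heavy chain gene Dync1h1 by -0.21. Nde1, a dynein regulator of dividing progenitors, differed by 0.31, and the dynein adaptor gene Hook2 and the dynactin subunit gene Dctn6 by -0.29 and -0.21.

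Proliferation genes, measured as a companion to the mitotic kinesins, gave 0 of 25 past the adjusted threshold in limma. Before adjustment 1 higher one (4%) and 0 lower ones had a p under 0.05, against 6.9% and 4.9% of all genes, and the median was -0.02. The replication helicase gene Mcm5 differed by 0.65 (limma adjusted p = 0.391), at 8.36 and 8.01 in the knockout pools and 7.25, 7.49 and 7.88 in the control pools. Mki67, the marker of cycling cells, differed by -0.52, the spindle checkpoint kinase gene Bub1 by -0.45 and the mitotic kinase gene Aurkb by -0.41, and none of these passed. The per-array medians of the list, 0.06 and -0.05 in the knockout pools and -0.03, -0.08 and 0.15 in the control pools, were highest in control pool 3, as were those of the mitotic kinesins.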

How the data were processed

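The authors deposited 1 log2 value for each Affymetrix probe set and array, computed by RMA according to the submitters' processing notes. The RMA version is not given in the sources used here. Per the labels' protocols, nuclei were cut from 200 µm sections, and 20 ng of RNA was amplified (Nugen Ovation) and biotin-labelled. RMA subtracts background, equalises array distributions and compresses differences near background. The 64 array control probe sets were left out of the tests.

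Knockout (2 arrays) and heterozygous control (3 arrays) were compared with limma 3.58.1 in R 4.3.3 (lmFit, eBayes, two-sided, genotype as the only term), with Benjamini-Hochberg adjustment over all 45037 probe sets. All p-values, adjusted or not, come from this fit, and 95% intervals use its 3 residual and 2.52 prior degrees of freedom. An exact permutation test could not go below 0.1 here. The number of arrays limits precision. Array medians lay between 6.39 and 6.42 and correlations between arrays between 0.985 and 0.995, with no duplicated array.

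Symbols came from the platform annotation; 34945 probe sets named 1 gene, and 0 symbols changed through the GRCm38.p6 RefSeq gene table. The members, classes and gene lists were chosen with earlier results of these data known. Array values are printed for members past the adjusted threshold, with an unadjusted p under 0.05 or without overlap between groups, and for Kif5a, Kif5b, Kif5c, Kif1a and Kif11, with means for Kif3a. From the partner, dynein and proliferation lists the 4 members with the smallest p above the median level are named; further genes were chosen after their values were seen. Lists are described by counts and medians, without a test. Alternatives were a replicate block, further normalisations, a filter on dim probe sets, other variance priors, array weights, each array left out, and other choices of probe sets.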

Additional observations from a re-analysis of the deposited data

Results flagged for a closer look

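Among the array's control probe sets, which the comparison left out, the 3′ minus 5′ difference of knockout pool 1 was above every control pool. It was 2.34 for Gapdh, against 0.96 in knockout pool 2 and at most 1.32 in the controls, and 1.91 for Actb, against 0.97 in knockout pool 2 and at most 1.45 in the controls. Without knockout pool 1 the Kif26b difference was 2.24, against 2.19 with all arrays.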

How the results depend on the processing

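Kif26b kept its direction under all 14 alternatives, from 2.13 to 2.25, and its call under 8. The labels number the pools alike in both groups, but nothing ties the numbers to shared litters. Deviations of same-numbered pools correlated at 0.148 and 0.212, and those of the other pairs at -0.212 to 0.0562. With 2 knockout pools their deviations mirror each other, so these values cannot decide whether the pools are paired. With the replicate number as a block, Kif26b differed by 2.25 (limma adjusted p = 0.298) and 0 kinesins passed, with 2 higher and 2 lower at an unadjusted p under 0.05. Over all probe sets, 33 passed in the reported fit, against 0 with the block (4950 at an unadjusted p under 0.05), 114 without dim probe sets, 100 with an intensity trend, 19 with array weights and 99 genes with probe sets averaged per gene. With 1 array left out, 0 probe sets passed (3694 to 8397 unadjusted), and 0 kinesins passed (2 to 3 higher and 0 to 3 lower unadjusted); fewer arrays leave fewer degrees of freedom. With probe sets averaged, 1 kinesin was lower at an unadjusted p under 0.05, against 2. The transport median, -0.01, was -0.06 with the block, 0.01 after further quantile normalisation, -0.03 with array weights, -0.08 with probe sets averaged, and -0.06 to 0.03 with 1 array left out. Small differences that were not called changed sign: with probe sets averaged, Kif5b was 0.08, Kif21b -0.08, Kif5c -0.25 and Kif3a -0.16; with 1 array left out, Kif5a ranged from -0.18 to 0.01, Kif5c from 0.00 to 0.04, Kif1a from -0.76 to 0.25 (0.10 without control pool 2) and Kif3a from -0.10 to 0.21. Kif5c was 0.00 with the block. The cause of these changes was not tested. Signals near background are compressed by RMA, which limits Kif26b's control level and the dim mitotic kinesins.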

Other observations

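A probe set that the platform assigns to both Kif27 and Gm26555, and that therefore is no member, read 4.47 and 4.86 in the knockout pools and 5.01, 5.15 and 4.89 in the control pools, a difference of -0.35. Kif19a, a kinesin in the RefSeq table, has no probe set naming it alone and was not analysed here.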
